A study of Homo sapiens with 2 samples.

Results

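The metalloproteases that cut extracellular matrix and cell-surface proteins were followed in 769-P, a human cell line derived from a clear-cell kidney carcinoma, with and without extra FOXK2, a forkhead transcription factor. The genes were taken by name: every transcript cluster whose single annotated symbol was MMP, ADAM, ADAMTS, ADAMTSL or TIMP followed by a number, without pseudogenes and antisense genes. The rule found 67 transcript clusters for 67 genes, of 67528 transcript clusters on the array and 22411 genes with a name. They were 22 matrix metalloproteases (MMPs), 19 ADAMs, 18 ADAMTSs, 5 ADAMTS-like proteins and 3 tissue inhibitors of metalloproteases (TIMPs). Another 7 family clusters were pseudogenes, 4 were antisense genes and 2 were annotated to several genes, TIMP2 among them, and none of these is counted below.

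MMPs, ADAMs and ADAMTSs share a metalloprotease domain, which in the active enzymes binds zinc and is held silent by a propeptide until furin or another protease removes it. MMPs degrade collagens and other matrix proteins, ADAMs are membrane proteins that shed the outer parts of growth factors and receptors, and ADAMTSs are secreted enzymes that cut proteoglycans and trim procollagens. TIMPs block their active sites, and ADAMTS-like proteins have the accessory domains without the protease. In kidney tumours these enzymes are studied for their part in invasion and in the release of epidermal growth factor receptor ligands.

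The comparison was between 1 array of cells that carried the empty lentiviral vector plv-EGFP and 1 array of cells that carried pLV-EGFP-FOXK2, the same backbone with the FOXK2 coding sequence. Both cultures were of the same parental line, which the labels give as a non-metastatic tumour, were grown in RPMI-1640 with 10% serum, and had been through lentiviral delivery. The transgene is not the cell's own gene, and the labels do not say whether clones or a pool of cells were used. The deposited values are log2 expression values, and every difference below is FOXK2 minus empty vector. With 1 array per group there was no replicate, no error, no test and no p-value, so each difference describes this pair of arrays and the number of arrays limits the precision.

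The FOXK2 transcript cluster read 9.36 with empty vector and 13.82 with FOXK2, the direction the labels give. Genes whose mean over both arrays was at least 5.24, the median of all transcript clusters with a single gene symbol, are called above the level limit; 11263 genes passed. Whether a value below it lay above background is not known. A gene is called measured here and below where it had a transcript cluster annotated to it alone. Clusters annotated to several genes were not used. Of 10 listed kidney and kidney carcinoma markers, CA9 and NDUFA4L2 were not among the genes measured in this sense. The 8 measured ones passed the limit, with values from 8.05 to 16.20. Of these, LRP2 and CUBN, the endocytic receptors of the proximal tubule, were higher by 3.05 and 3.43. The other 6 differed by between -0.37 and -0.083. None of the 7 measured fibroblast markers (3.64 to 4.45) and none of the 5 endothelial markers (3.14 to 4.22) passed the limit. Of the 5 leukocyte markers only CD68, a lysosomal protein also found outside leukocytes, was above it, and it was higher by 0.94. Their part in the results below was not tested.

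Few of the metalloprotease genes were above the level limit. Of the 67, 12 passed it (17.9%), against 9603 of 17154 protein-coding genes (56.0%). They were 5 ADAMs (ADAM9, ADAM10, ADAM15, ADAM17 and ADAM22), 4 ADAMTSs (ADAMTS1, ADAMTS3, ADAMTS9 and ADAMTS15), 2 membrane-type MMPs (MMP14 and MMP24) and TIMP1. None of the collagenases, gelatinases, stromelysins, matrilysins or ADAMTS-like proteins passed. The limit is 1 value for all transcript clusters, whose levels cannot be compared between genes. These shares therefore count array values past that limit and are not read as low expression of the genes below it. Over all 11263 genes above the limit, 2.13% passed 2-fold upward with FOXK2 and 3.05% downward, 5.19% in either direction. Of the 12 members, 1 was at least 2-fold higher, ADAM22, and none was 2-fold lower. With so few genes, 1 call cannot be told apart from that background.

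**Figure D1:**
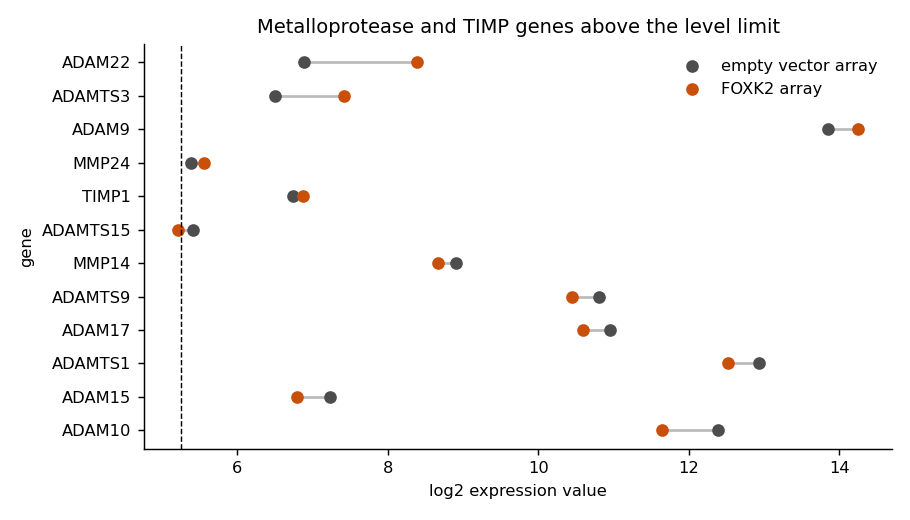
Log2 expression value (x axis) of the 12 metalloprotease and TIMP genes above the level limit (y axis), with the empty vector array in grey and the FOXK2 array in orange, 1 array each; the dashed line is the level limit of 5.24. ADAM22 and ADAMTS3 lay to the right with FOXK2 by 1.49 and 0.91, and ADAM10 lay to the left, with a difference of -0.75. Distances are read within a gene, since the level of 1 probe set cannot be compared with that of another.

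Among the 12, 7 differences were negative and 5 positive, with a median of -0.22 and a mean of 0.029, which have opposite signs. Over all 11263 genes the median was -0.050 and 55.6% of the differences were negative. The median size of the difference, whatever its sign, was 0.38 in the 12 members and 0.24 over all genes. The difference of the members ran from -0.75 in ADAM10 to 1.49 in ADAM22, while 95% of all genes lay between -1.09 and 0.93. ADAM22 was thus the single member outside that span.

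**Figure D2:**
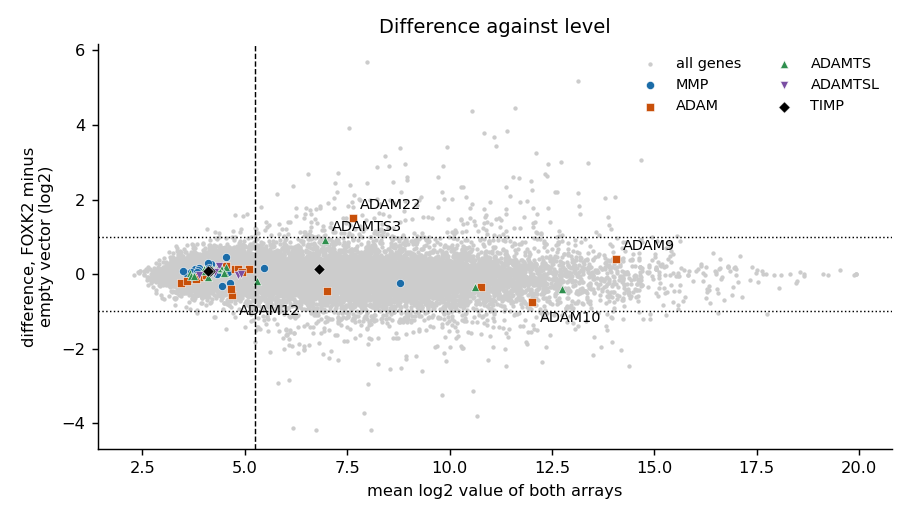
Difference between the arrays (y axis, log2) against the mean of both arrays (x axis, log2) for all 22411 genes in grey and the 67 members in colour by family; the dashed line is the level limit of 5.24 and the dotted lines mark 2-fold. Most members cluster at the left, below the limit and near 0, and ADAM22 is the one beyond the upper dotted line.

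Among the ADAMs without a working protease, only ADAM22 was above the level limit. ADAM22 serves in neurons as a receptor for the secreted protein LGI1, and its metalloprotease-like domain lacks the residues that bind zinc. Its value was 6.89 with empty vector and 8.38 with FOXK2, which is 2.82-fold higher. Of all genes above the level limit, 1.95% differed by at least as much in either direction. The next protein-coding genes above the limit on chromosome 7 differed by 0.69 (SLC25A40) and -0.21 (DBF4) on one side and by -0.98 (SRI) and 0.30 (CFAP69) on the other. The values were also recomputed in 4 other ways, by median centring, removal of a trend on level, quantile normalization and subtraction of the median of neighbouring genes, and ADAM22 then differed by between 1.32 and 1.57. The other 6 measured members of the group, which include the related ADAM11 and ADAM23, were below the level limit. ADAM11 came closest to it, at 5.04 and 5.18. ADAM23, which also binds LGI1, read 4.06 and 4.04.

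The 4 catalytic ADAMs above the limit did not all lie on the same side. ADAM10, the alpha-secretase that sheds amyloid precursor protein, Notch and several growth factor ligands, read 12.39 with empty vector and 11.65 with FOXK2, 1.68-fold lower. ADAM15, a membrane protease with an integrin-binding disintegrin domain, read 7.24 and 6.79, 1.36-fold lower. ADAM17, the tumour necrosis factor convertase and main sheddase of several EGFR ligands, read 10.95 and 10.60, 1.28-fold lower. All 3 were below the 2-fold limit, and 10.4%, 25.6% and 34.9% of all genes differed by at least as much as ADAM10, ADAM15 and ADAM17. ADAM9, a sheddase expressed in many tumours, was on the other side, at 13.86 with empty vector and 14.25 with FOXK2, 1.32-fold higher. These 4 signs held in each of the 4 recomputations. None of the 8 other catalytic ADAMs was above the level limit. Their largest differences were -0.56 in ADAM12, from 4.96 to 4.41, and -0.39 in ADAM19, from 4.86 to 4.47. ADAM20 and ADAM21 are similar copies whose probes may be shared, so their values are uncertain.

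At a lower limit of 1.5-fold, which 6.09% of all genes passed upward and 10.6% downward, 2 members were higher (ADAM22 and ADAMTS3) and 1 was lower (ADAM10). ADAMTS3 removes the N-propeptide of procollagen and activates the lymphatic growth factor VEGFC together with CCBE1. It read 6.50 with empty vector and 7.41 with FOXK2, 1.88-fold higher, and stayed short of 2-fold in all 4 recomputations, at most 0.97. The other procollagen-processing members, ADAMTS2 and ADAMTS14, were below the level limit and differed by 0.15 and 0.19.

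The 3 proteoglycan-cleaving ADAMTSs above the limit were each slightly lower with FOXK2. ADAMTS1, which cuts aggrecan and versican, read 12.94 with empty vector and 12.53 with FOXK2, a difference of -0.41. ADAMTS9, which cuts versican and is also needed at the primary cilium, read 10.80 and 10.45, a difference of -0.35. ADAMTS15, another versicanase, read 5.40 and 5.21, a difference of -0.19, and in the FOXK2 array it was under the level limit. All 3 signs held in the 4 recomputations, although ADAMTS9 then came as near to 0 as -0.0038. The antisense genes beside ADAMTS9 differed in opposite directions, by 0.51 in ADAMTS9-AS1 and -0.57 in ADAMTS9-AS2. Whether the deposited values keep the strands of overlapping genes apart is not given in the sources used here. ADAMTS4, ADAMTS5, ADAMTS8 and ADAMTS20, of the same group, were below the limit with differences between -0.053 and 0.17.

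**Figure D3:**
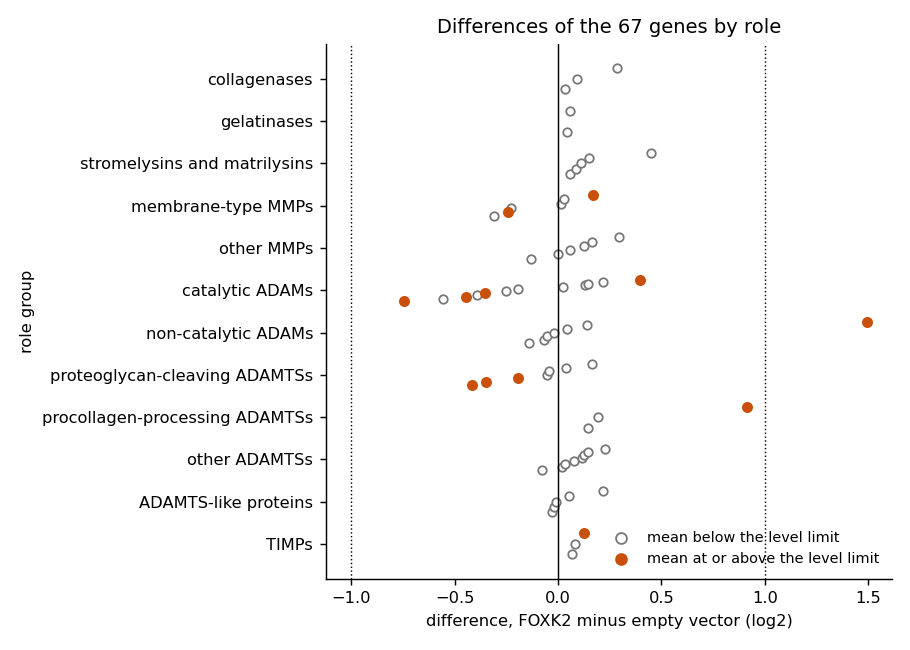
Difference between the arrays (x axis, log2) of each of the 67 genes by role group (y axis), filled where the gene was above the level limit and open where it was below; dotted lines mark 2-fold. The filled points of the proteoglycan-cleaving ADAMTSs lie between -0.41 and -0.19, and the open points of all groups lie between -0.56 and 0.45.

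Of the MMPs, MMP14 and MMP24 were the 2 of 22 above the level limit. MMP14, the membrane-type enzyme that cuts fibrillar collagen at the cell surface and activates MMP2 with the help of TIMP2, read 8.91 with empty vector and 8.66 with FOXK2, a difference of -0.24. MMP24, a membrane-type enzyme known from neurons, read 5.39 and 5.56, a difference of 0.17 just above the limit. An overlapping opposite-strand gene, listed as MMP24-AS1, differed by 0.37. The 4 other membrane-type MMPs were below the limit, with MMP16 at -0.31 and MMP15 at -0.23. The gelatinase MMP2, which MMP14 activates, read 3.96 and 4.02, and the gelatinase MMP9 read 4.56 and 4.60, both below the level limit, with differences of 0.060 and 0.043. Neither sign was stable: MMP9 turned negative after median centring (-0.026), removal of the trend on level (-0.030) and quantile normalization (-0.027), and MMP2 after median centring (-0.0095).

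9 MMP genes lie side by side on chromosome 11: MMP1, MMP3, MMP7, MMP8, MMP10, MMP12, MMP13, MMP20 and MMP27. All 9 were below the level limit, with values from 3.54 to 4.76. MMP7, matrilysin, had the largest difference, 0.45, from 4.31 to 4.76. MMP1, interstitial collagenase, differed by 0.28, and MMP20, the enamel protease, held exactly the same value, 4.31, in both arrays. The 8 nearest genes above the limit around the cluster included BIRC2 at 0.69 and TMEM123 at -0.32, and their median was 0.0046. The cluster itself had a median of 0.058.

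Of the inhibitors, TIMP1 was above the level limit and hardly differed. TIMP1, a secreted inhibitor of most MMPs, read 6.74 with empty vector and 6.87 with FOXK2, a difference of 0.13. The TIMP1 gene lies within an intron of SYN1, which runs on the opposite strand. TIMP3, the matrix-bound inhibitor that also blocks ADAM17 and several ADAMTSs, read 4.10 and 4.18, and TIMP4 read 4.06 and 4.13. Both were below the limit, and the sign of TIMP4 turned after median centring (-0.00018) and when the values of neighbouring genes were subtracted (-0.13). The median subtracted there, 0.20, came from genes above the level limit only, so the value of -0.13 largely carries it with its sign turned.

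Differences of the 55 members below the level limit cannot be read as change or as its absence, since their signal over background is not known. Their values lay between 3.32 and 5.18, their differences between -0.56 and 0.45, and 48 of them differed by less than 0.25 in size. 37 were positive, 17 negative and 1 was equal, with a median of 0.051. The 11148 genes below the limit had a median of 0.055 with 62.1% positive, a similar tilt. They include the 8 ADAMTSs that are neither proteoglycan-cleaving nor procollagen-processing, such as ADAMTS13, the von Willebrand factor protease, whose differences ran from -0.080 to 0.22. They also include the 5 ADAMTS-like proteins, with differences from -0.029 to 0.22.

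Promoter sequences from RefSeq (GRCh38.p14) were matched for 42 of the 67 genes, 8 of them above the level limit. The 250 bases before the annotated start were searched on both strands. The forkhead motif was taken as GTAAACA, the core to which factors such as FOXK2 bind. The motif of AP-1, the factor complex of the JUN and FOS proteins, was taken as TGAGTCA, and the TATA box as TATAAA. No match in a member's promoter overlapped another. None of the 8 promoters of members above the limit held any of them. Of the 27305 promoters in the table, 2.98% held the forkhead motif, 4.16% the AP-1 motif and 11.1% the TATA box. The 5 printed here are those of the called gene ADAM22, of ADAMTS3, of the sheddases ADAM10 and ADAM17, and of MMP7 for contrast, each 5′ to 3′ with motif matches in capitals.
ADAM22 promoter: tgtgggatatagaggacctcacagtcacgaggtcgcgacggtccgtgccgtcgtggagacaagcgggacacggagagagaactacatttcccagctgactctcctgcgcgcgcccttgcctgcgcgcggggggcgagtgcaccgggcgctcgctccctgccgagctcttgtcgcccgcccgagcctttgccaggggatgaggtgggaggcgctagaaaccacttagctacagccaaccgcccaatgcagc
ADAMTS3 promoter: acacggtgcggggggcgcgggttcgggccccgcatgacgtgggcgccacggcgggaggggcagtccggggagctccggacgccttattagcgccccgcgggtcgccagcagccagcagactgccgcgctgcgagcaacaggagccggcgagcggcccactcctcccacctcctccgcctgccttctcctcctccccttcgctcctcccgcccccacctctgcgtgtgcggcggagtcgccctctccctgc
ADAM10 promoter: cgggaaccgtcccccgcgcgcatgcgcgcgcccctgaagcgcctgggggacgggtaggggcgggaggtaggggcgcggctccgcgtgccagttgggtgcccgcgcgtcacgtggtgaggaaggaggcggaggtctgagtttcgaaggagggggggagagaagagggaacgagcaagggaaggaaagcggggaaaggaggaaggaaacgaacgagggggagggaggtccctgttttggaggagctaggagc
ADAM17 promoter: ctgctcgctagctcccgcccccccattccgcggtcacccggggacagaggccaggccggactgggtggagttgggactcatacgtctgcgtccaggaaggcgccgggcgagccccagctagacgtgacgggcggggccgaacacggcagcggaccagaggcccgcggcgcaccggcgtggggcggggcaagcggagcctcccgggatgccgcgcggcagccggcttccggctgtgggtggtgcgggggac
MMP7 promoter: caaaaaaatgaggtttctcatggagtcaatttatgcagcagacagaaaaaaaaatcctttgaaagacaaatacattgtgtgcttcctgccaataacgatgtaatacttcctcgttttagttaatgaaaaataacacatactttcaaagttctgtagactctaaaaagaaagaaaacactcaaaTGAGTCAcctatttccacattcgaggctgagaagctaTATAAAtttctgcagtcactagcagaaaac

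They lie at chr7:87934001-87934250 on the plus strand and, on the minus strand, at chr4:72569222-72569471, chr15:58749708-58749957, chr2:9555831-9556080 and chr11:102530748-102530997. The first 4 are rich in G and C, at 65.6%, 75.2%, 68.4% and 75.6%, with 25, 30, 25 and 31 CpG pairs, and the capitals are absent from them. The MMP7 promoter has 33.6% G and C, 3 CpG pairs, 1 AP-1 match and 1 TATA match. Over the 8 matched members above the limit the median was 71.8% G and C, against 58.0% over all promoters. The 34 matched members below the limit had a similar median, 68.2%, so a high share of G and C does not set those above it apart. MMP7 is thus no example of the members below the limit, and it was the 1 of 42 matched members with an AP-1 match. Of the 8 matched collagenases, stromelysins, matrilysins and other secreted MMPs, all below the limit, 6 held a TATA box, against 2 of the 34 other matched members. The forkhead motif was found in the promoters of MMP27 and ADAMTS13, both below the limit. These matches describe letters within a short window and say nothing about binding.

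Differences were unevenly spread along the chromosomes in these arrays, so each member was set beside the median of the 51 genes above the level limit centred on it. Of the 12 members, 10 had the same sign as that median, as did 60.1% of the 11252 genes above the limit for which it could be computed; with 12 genes, nothing particular to the members is read from this. ADAM10 lies on chromosome 15, where 77.1% of the 397 genes above the limit had negative differences, and its neighbours had a median of -0.38. After subtraction ADAM10 stood at -0.37 in place of -0.75. ADAMTS9 lies on chromosome 3 among genes with a median of -0.35, and it stood at -0.0038 after subtraction. ADAM9 went against the median of its neighbours, -0.25, and stood at 0.65. The nearest protein-coding genes above the limit differed by 1.32 (PLEKHA2) and -0.13 (TM2D2) on one side. On the other side they differed by 0.81 (ZMAT4) and -0.29 (GOLGA7). ADAM22 stood at 1.32 and ADAMTS3 at 0.82. The part of the neighbourhood in these differences was not tested.

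**Figure D4:**
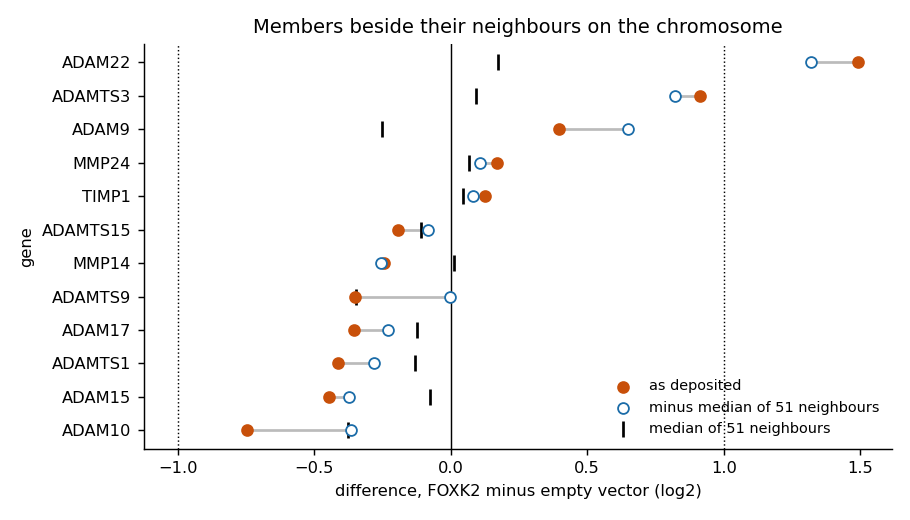
Difference between the arrays (x axis, log2) for the 12 members above the level limit (y axis), as deposited (filled orange), after subtraction of the median of 51 neighbouring genes (open blue), and that median itself (black bar); dotted lines mark 2-fold. The ADAMTS9 point moves to 0, ADAM10 moves from -0.75 to -0.37 and ADAM9 moves away from 0.

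Genes that act with the metalloproteases were described from 7 lists of 103 genes, of which 96 were measured and 53 were above the level limit. None of the 53 was at least 2-fold higher and 5 were at least 2-fold lower, where all genes had 2.13% and 3.05%. The lists were chosen with earlier results of these data known, so no excess over that background is read from these counts. The median of the 53 was -0.17, against -0.050 over all genes, and for the same reason no shift is read from it.

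Of the activators of the proenzymes, 5 of 11 were above the limit. PCSK5, a proconvertase, read 7.34 with empty vector and 6.23 with FOXK2, 2.15-fold lower. FURIN, the proconvertase that removes the propeptides of ADAM10, ADAM17 and MMP14, read 7.92 and 6.95, 1.97-fold lower and just short of the limit. HPN, the membrane serine protease hepsin, read 6.06 and 7.01, 1.94-fold higher. After subtraction of the neighbours PCSK5 stood at -0.79, FURIN at -0.66 and HPN at 1.03. PLAU, the urokinase that activates plasminogen, differed by -0.11 as deposited and by 0.18 after that subtraction.

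The partners of ADAM10 and ADAM17 are the iRhoms, FRMD8 and the TspanC8 tetraspanins, which carry the sheddases through the secretory pathway. 6 of the 9 were above the limit, none reached 2-fold, and all 6 differences were negative, from -0.96 to -0.093 with a median of -0.45. Over all genes above the limit, 55.6% of the differences were negative. With 6 genes, nothing particular to the partners is read from this. TSPAN33 read 7.08 and 6.12, TSPAN17 read 6.98 and 6.18, and TSPAN14 read 8.16 and 7.43, differences of -0.96, -0.80 and -0.73 beside the -0.75 of ADAM10. RHBDF2, the iRhom that carries ADAM17, differed by -0.14. After subtraction of the neighbours TSPAN33 stood at -0.96, TSPAN17 at -0.44, TSPAN14 at -0.41 and RHBDF2 at -0.097, and TSPAN15 was positive (0.16).

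Of the other inhibitors, 3 of 8 were above the limit. SPOCK1, a secreted proteoglycan of the testican group, read 9.59 and 7.87, 3.29-fold lower with FOXK2. RECK, a membrane-anchored inhibitor of MMPs, differed by -0.22, and SERPINE2, which inhibits the serine proteases that activate them, by -0.099. After subtraction of the neighbours these 2 stood at 0.011 and -0.0082, and SPOCK1 at -1.64. Among 17 sheddase substrates above the limit, 12 differences were negative, where 55.6% were over all genes above it. CD44, a hyaluronan receptor shed by ADAM10 and MMP14, read 7.37 and 5.25, 4.37-fold lower. Its FOXK2 value lay barely above the level limit of 5.24, so the size of this difference is uncertain. The EGFR ligand EREG read 6.11 and 4.63, the latter below the limit, so its 2.79-fold lower value is uncertain. CX3CL1, a membrane-bound chemokine shed by ADAM10 and ADAM17, was higher by 0.91.

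Of the matrix substrates, 7 of 20 were above the limit, and FN1, fibronectin, at 9.78 and 6.04, was the 1 that passed 2-fold. VCAN, versican, the substrate of ADAMTS1, ADAMTS9 and ADAMTS15, read 16.81 and 16.89, a difference of 0.075. The fibrillar collagen chains COL1A1 and COL1A2, on which the collagenases and ADAMTS3 act, were below the limit. Among the 14 factors above the limit that induce these enzymes, none reached 2-fold, and ETV1 (0.99), ETS2 (-0.99) and FOSL2 (-0.95) came closest. BSG, the surface protein that induces MMPs in neighbouring cells, differed by -0.40. BMP1, the procollagen C-proteinase and the 1 of 9 other metzincins above the limit, differed by -0.26.

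**Figure D5:**
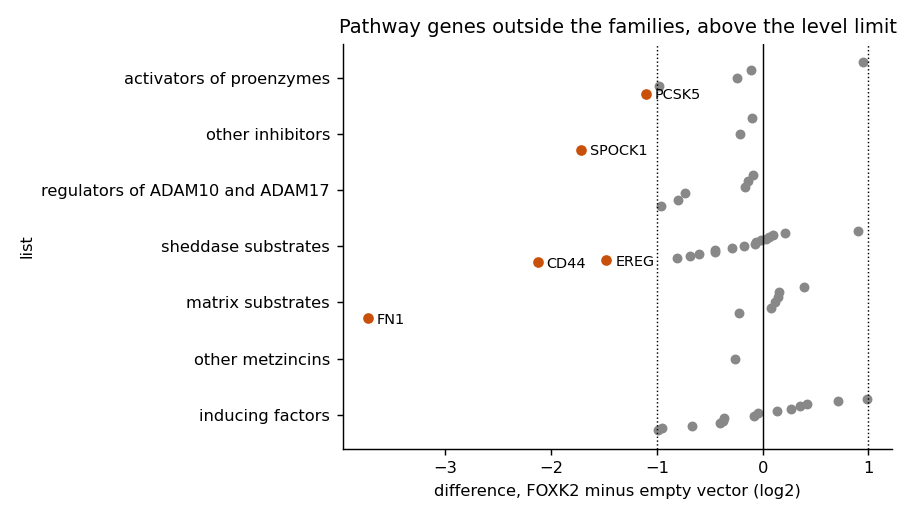
Difference between the arrays (x axis, log2) of the 53 pathway genes above the level limit by list (y axis); dotted lines mark 2-fold and named orange points lie beyond it. All 5 of these, FN1, CD44, SPOCK1, EREG and PCSK5, lie on the lower side, and all 6 regulators of ADAM10 and ADAM17 lie left of 0.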

How the data were processed

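Total RNA of 769-P cells was labelled with biotin and hybridised to Affymetrix whole-transcript arrays, 1 per group, per the labels' protocols. The authors used Affymetrix Expression Console, per the submitters' processing notes; the algorithm, its version and the build used are not stated in what was available. The deposited values were taken as log2, from their range of 2.13 to 19.93 in both arrays. The array medians were 4.48 (empty vector) and 4.55 (FOXK2).

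Transcript clusters were named from the platform annotation (23781 with 1 gene symbol, 1543 with several, 42204 with none), with symbols updated through RefSeq (GRCh38.p14), and clusters of a gene were averaged. Each of the 67 members has 1 cluster. A gene was called at a difference of at least 2-fold with a mean at or above 5.24; no test was possible. Members and lists were chosen with earlier results of these data known. Named genes were all members above the level limit, MMP2, MMP9, the TIMPs, members with the largest differences in a role group, and the pathway genes past 2-fold; other pathway genes, promoter examples and members below the limit were picked after their values were seen. Protein sequence motifs were planned but not run. Alternatives were median centring, removal of a loess trend (span 0.3), quantile normalization, the brightest cluster, subtraction of the running median of 51 neighbours, other level limits and 1.5-fold and 3-fold limits. The tools were numpy 2.4.6 with pandas 2.3.3 under Python 3.11.15, statsmodels 0.14.6 for the loess trend and matplotlib 3.10.9 for figures, and the calculation was tested on simulated data.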

Additional observations from a re-analysis of the deposited data

How the results depend on the processing

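ADAM22 was the 1 member at least 2-fold higher, and no member was 2-fold lower, after median centring, removal of the loess trend, quantile normalization and subtraction of the running median, and under all 3 other level limits; at 1.5-fold 2 were higher and 1 lower, and at 3-fold the number higher was 0. The same limits over all genes gave 686 higher and 1197 lower at 1.5-fold and 98 and 83 at 3-fold. Subtraction of the running median turned the split of all genes at 2-fold from 240 higher and 344 lower to 269 and 231. The median of the members above the limit, -0.22, became -0.044 after subtraction of the running median and 0.043 with no level limit. By role group, that subtraction gave medians of 0.21 for the ADAMTS-like proteins, -0.0045 for the membrane-type MMPs, 0.19 for the non-catalytic ADAMs and 0.45 for the procollagen-processing ADAMTSs. The median subtracted came from genes above the level limit only. Of these groups 5 of 5, 4 of 6, 6 of 7 and 2 of 3 genes were below that limit. Their medians after subtraction therefore largely carry the neighbours' median with its sign turned, and are not read as change. Pathway genes at least 2-fold lower, 5 from the deposited values, numbered 9 after median centring, 2 with a stricter level limit, 15 at 1.5-fold and 3 at 3-fold. Over all genes, 416 of 11263 were lower after median centring and 276 of 7580 with that stricter limit. Pathway genes that were higher numbered 1 after removal of the loess trend, 2 once the running median was subtracted and 4 at 1.5-fold. Removal of the loess trend gave 281 of 11263 higher over all genes. A median was taken to have moved beyond 0.087, the median disagreement between transcript clusters of 1 protein-coding gene, which is no replicate error. The cause of these changes was not tested. Taking the brightest transcript cluster could not change any member, since each has 1. No paired analysis was possible because each group has 1 array. No signal over background is known, so differences below the level limit cannot be read.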
